A study of Mus musculus with 13 samples.

Results

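The miRNAs miR-144, miR-451a and miR-486 are small RNAs known best from red blood cells, and were followed here in mouse brain tissue. They were taken as every mature product of 4 hairpins, mmu-mir-144, mmu-mir-451a, mmu-mir-486a and mmu-mir-486b, of 903 hairpins listed over 13 libraries. A library gives its counts by pair of hairpin and mature miRNA, and these hairpins accounted for 7 of 1514 pairs. The 4 hairpins were selected on a measured value, the hippocampal difference in counts between TgR and FVB/N mice in these same libraries, which was known beforehand. The hippocampal genotype difference is therefore given as a description, and nothing is read from the calls counted in it.

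Small RNA was sequenced from the hippocampus and the prefrontal cortex (PFC) of TgR mice and of FVB/N mice, the wild-type controls of the same strain. TgR mice carry a transgene for human AChE-R, a stress-induced splice variant of acetylcholinesterase, the enzyme that breaks down acetylcholine. The groups were hippocampus of TgR mice (n = 3), hippocampus of FVB/N mice (n = 3), PFC of TgR mice (n = 4) and PFC of FVB/N mice (n = 3), within each region 1 library an animal. The transgene was expressed constitutively from the cytomegalovirus minimal promoter-enhancer, which is not a promoter of a single brain cell type, and TgR mice varied in their behaviour. The TgR mice analysed were a mixed group in that respect. Which behaviour each sequenced mouse showed, its age, whether blood was flushed from their vessels, and whether both regions came from the same mice were not given in the sources used here.

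Total counts per library were 13619784, 15504776 and 13077865 in FVB/N hippocampus and 18385985, 14435742 and 17229478 in TgR hippocampus. In the PFC they were 15177449, 11386005 and 15376927 in FVB/N mice and 16043125, 8769851, 15649901 and 17708258 in TgR mice. Replicate 2 of TgR PFC was thus the shallowest library. Levels are given as CPM, counts relative to the total of their library, scaled over the 13 libraries with the trimmed mean of M-values (TMM). Some mature miRNAs are listed, and so counted, under several hairpins, and with 1 pair per mature miRNA the group levels of the members were 1.59 to 1.67 times as high.

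Red blood cells lose their nucleus as they mature but keep mature miRNAs, and miR-451a is among the most abundant of them. The transcription factor GATA1 switches on the joint precursor of miR-144 and miR-451a during red cell formation, and mice that lack these miRNAs tolerate oxidative stress poorly. The hairpin of miR-451a is too short for Dicer and is cut by Argonaute 2 instead. The miR-486 hairpin lies within the gene of ankyrin-1, a protein that anchors the red cell membrane to its skeleton, and miR-486-5p is also known from muscle. In brain tissue these miRNAs can come from blood held in the vessels, and in bulk samples fewer cells of a type and less RNA per cell cannot be told apart.

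The mature sequences are shown because the seed, bases 2 to 8, is the part of a miRNA that pairs with its targets. In the RefSeq table for GRCm38.p6, 3 of the 7 mature miRNAs were found by name, and each is printed 5′ to 3′ with its seed in capitals. No entry was found under the names miR-486a-5p, miR-486a-3p, miR-486b-5p and miR-486b-3p.
miR-144-5p: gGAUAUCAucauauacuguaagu
miR-144-3p: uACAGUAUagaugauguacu
miR-451a: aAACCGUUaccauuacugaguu
The 3 seeds differed from each other, and 0 other mature miRNAs of 1679 in the table shared any of them. The miRNAs of this locus are thus separate in their seeds, although they are made from neighbouring hairpins.

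In GRCm38 the hairpin of mmu-mir-144 lies on the plus strand of chromosome 11, from 78073005 to 78073070. The hairpin of mmu-mir-451a follows on the same strand, from 78073170 to 78073241, with 99 bases between them. Neither hairpin overlapped a protein-coding gene in the GENCODE annotation, and Eral1 on the minus strand was the nearest, 306 bases from mmu-mir-144 and 135 bases from mmu-mir-451a. The hairpin of mmu-mir-451b is annotated at the coordinates of mmu-mir-451a on the minus strand, and 0 pairs of it were listed in any library. In the mmu-mir-451a hairpin of 72 bases the mature miR-451a spans bases 17 to 38.

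The hairpins of mmu-mir-486a and mmu-mir-486b overlap each other on opposite strands of chromosome 8, from 23142555 to 23142682 on the plus strand and from 23142573 to 23142662 on the minus strand. Both lie in an intron of Ank1, which is on the plus strand. Counts of miR-486b-5p were between 1.03 and 1.09 times those of miR-486a-5p in every library. The pair of miR-486-5p rows is therefore treated as 1 measurement of uncertain origin, given as miR-486a-5p, and not as 2 independent ones.

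Across the 13 libraries miR-451a was the most abundant of the members, at a mean of 840.2 CPM and rank 93 of 1514 pairs. It was followed by miR-486a-5p at 206.9 CPM, miR-144-3p at 104.1 CPM and miR-144-5p at 31.9 CPM. The passenger strands were low, with a mean of 5.40 CPM for miR-486a-3p and 0.758 CPM for miR-486b-3p. The counts of miR-486b-3p ran from 5 to 15 a library, so that its values carry large counting error. All 7 pairs passed the filter on low counts in each comparison.

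Levels of miR-451a, the most abundant of the members, were 664, 755 and 766 CPM in FVB/N hippocampus and 312, 476 and 415 CPM in TgR hippocampus. In FVB/N PFC they were 1077, 972 and 696 CPM, and in TgR PFC 968, 1768, 1063 and 990 CPM. The 3 TgR hippocampal libraries were the lowest of all 13, and replicate 2 of TgR PFC stood above the rest.

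The guide strand miR-144-3p was at 85.8, 105 and 84.1 CPM in FVB/N hippocampus and at 53.5, 65.2 and 52.5 CPM in TgR hippocampus. Its PFC levels were 137, 127 and 89.6 CPM in FVB/N mice and, in TgR mice, 117, 190, 125 and 123 CPM. The order of libraries was close to that of miR-451a, with the same TgR PFC library on top. Its partner strand miR-144-5p was at 32.7, 39.8 and 27.5 CPM in FVB/N hippocampus and at 15.3, 16.3 and 18.1 CPM in TgR hippocampus. In the PFC miR-144-5p was at 41.1, 38.2 and 34.3 CPM in FVB/N mice and at 35.4, 39.0, 31.3 and 46.1 CPM in TgR mice. Here replicate 2 of TgR PFC lay among the others of its group.

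Levels of miR-486a-5p, the miRNA of the ankyrin-1 gene, were 274, 204 and 295 CPM in FVB/N hippocampus and 101, 93.1 and 167 CPM in TgR hippocampus. In FVB/N PFC they were 229, 338 and 224 CPM, and in TgR PFC 161, 195, 157 and 251 CPM. The hippocampal genotype groups did not overlap, whereas those of the PFC did. The strand miR-486a-3p ranged from 3.85 to 7.26 CPM over the 13 libraries and miR-486b-3p from 0.522 to 0.994 CPM.

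**Figure D1:**
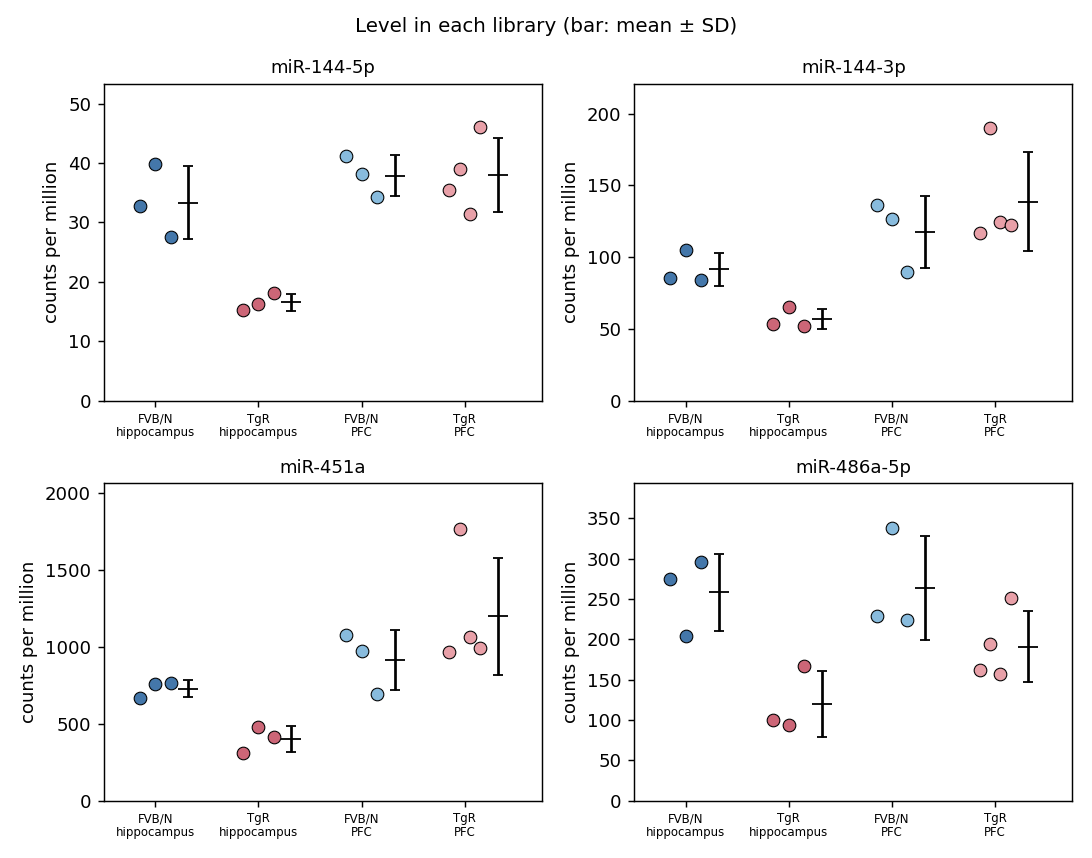
Level of miR-144-5p, miR-144-3p, miR-451a and miR-486a-5p (vertical axes, CPM) in each library of the 4 groups (horizontal axes), with bars for the mean ± SD. The 3 TgR hippocampal libraries of miR-451a lie between 312 and 476 CPM, under every other library, and the highest point is replicate 2 of TgR PFC at 1768 CPM.

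Group means of miR-451a were 400.8 ± 82.8 CPM in TgR hippocampus (SD, n = 3), 729 ± 55.9 CPM in FVB/N hippocampus (SD, n = 3), 915 ± 197 CPM in FVB/N PFC (SD, n = 3) and, highest, 1197 ± 383 CPM in PFC of TgR mice (SD, n = 4). The order was the same for miR-144-3p, with 57.1 ± 7.05, 91.6 ± 11.4, 118 ± 24.8 and 139 ± 34.5 CPM. In both, FVB/N hippocampus and FVB/N PFC overlapped, as did the PFC groups, and TgR hippocampus alone lay apart. For miR-486a-5p the order differed, with 120.3 ± 40.8 CPM in TgR hippocampus (SD, n = 3), 191 ± 43.5 CPM in TgR PFC (SD, n = 4), 258 ± 47.6 CPM in FVB/N hippocampus (SD, n = 3) and 264 ± 64.3 CPM in FVB/N PFC (SD, n = 3).

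The comparison of genotypes in the hippocampus asked how miRNAs differ where AChE-R is in excess in a region with dense cholinergic input. In TgR hippocampus miR-144-5p differed from FVB/N by a log2 fold change of -1.01 ± 0.191 (SE), miR-144-3p by -0.68 ± 0.167 and miR-451a by -0.86 ± 0.165 (n = 3 against 3). For miR-486a-5p the value was -1.09 ± 0.247. The low strands miR-486a-3p and miR-486b-3p were at -0.23 ± 0.178 and -0.43 ± 0.302. These are the differences on which the members were selected.

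With edgeR, 2 of the 7 member pairs, miR-144-5p and miR-451a, had an adjusted p under 0.05 in this comparison, where 25 of 726 tested pairs did, or 3.44%. Levels of 6 of the 7 lay below those of every FVB/N library, all but miR-486a-3p, against 96 of 726 pairs, or 13.2%. Since the members were selected on this contrast, neither count is read as a result. The number of member pairs under the threshold was 0 without replicate 1 of FVB/N hippocampus (12 of all pairs), 0 without replicate 3 of FVB/N hippocampus (1 of all pairs) and 0 without replicate 1 of TgR hippocampus (18 of all pairs). It was 1 without replicate 2 of TgR hippocampus (17 of all pairs) and 3 without replicate 2 of FVB/N hippocampus (28 of all pairs). Without replicate 3 of TgR hippocampus it was 2 (9 of all pairs), but neither miR-144-5p (-1.08) nor miR-451a (-0.90) was among them, and both were rows of miR-486-5p (-1.42 for miR-486a-5p). The adjusted p was also over the threshold for miR-144-5p (-0.98) without replicate 2 of TgR hippocampus, and for miR-451a (-0.86 each time) without replicate 2 of FVB/N hippocampus and with all 13 libraries in 1 fit. Without 1 library the log2 fold change of miR-144-5p ran from -1.17 to -0.88 and that of miR-451a from -0.99 to -0.75. The number was 5 with DESeq2 (56 of all pairs) and, with library size alone as the scale, 0 (18 of all pairs), where miR-144-5p was at -0.935 and miR-451a at -0.78.

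The comparison of genotypes in the PFC used libraries that, as far as their labels tell, took no part in the selection of the members. Whether they came from the same mice as the hippocampal libraries is not known. No member pair passed the test there. In TgR PFC the log2 fold change was 0.37 ± 0.273 (SE) for miR-451a, 0.22 ± 0.247 for miR-144-3p and -0.021 ± 0.179 for miR-144-5p (n = 4 against 3). It was -0.49 ± 0.218 for miR-486a-5p, which thus lay on the other side of 0 from miR-451a. For miR-486a-3p it was -0.077 ± 0.246 and for miR-486b-3p 0.079 ± 0.299.

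With edgeR, 0 of 7 member pairs had an adjusted p under 0.05, against 1 of 730 tested pairs, or 0.137%, and DESeq2 also gave 0 of 7, against 1 of all pairs. At an unadjusted p under 0.05 there were 0 of 7 member pairs and 19 of 730 pairs, or 2.60%. The edgeR p of miR-486a-5p was 0.0531 before adjustment and 1.00 after it, with 3 of 4 TgR libraries below the lowest FVB/N library. None of the 7 pairs separated the groups, where 27 of 730 pairs, or 3.70%, were higher without overlap and 10, or 1.37%, were lower. That 1 pair was miR-383-5p, which was named once its value had been seen. Without replicate 2 of TgR PFC, the shallowest library, the log2 fold change of miR-451a was 0.082 and that of miR-144-3p -0.0083. Without replicate 3 of FVB/N PFC these were 0.20 and 0.048, without replicate 1 of FVB/N PFC miR-144-3p was at 0.36, and without replicate 2 of FVB/N PFC miR-486a-5p was at -0.28.

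**Figure D2:**
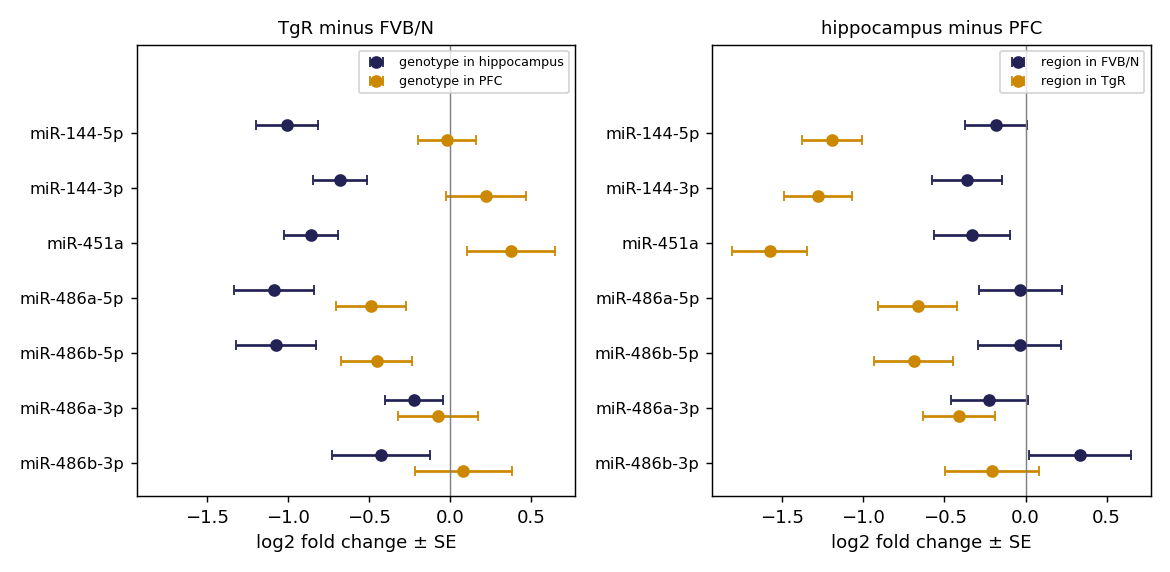
Log2 fold change ± SE (horizontal axes) of each member miRNA (vertical axes), with TgR minus FVB/N in hippocampus and PFC on the left and hippocampus minus PFC in FVB/N and TgR mice on the right. In the hippocampus miR-451a sits at -0.86 and in the PFC at 0.37, while miR-486a-5p is below 0 in both.

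The hippocampal genotype difference minus that of the PFC, on the log2 scale, was -1.25 ± 0.326 (SE) for miR-451a, -1.01 ± 0.262 for miR-144-5p and -0.92 ± 0.296 for miR-144-3p. For miR-486a-5p it was -0.63 ± 0.353. This difference contains the contrast on which the members were selected and was not tested.

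Hippocampus and PFC were compared next within each genotype. In TgR mice the hippocampus was lower than the PFC in miR-451a, by a log2 fold change of -1.58 ± 0.231 (SE), in miR-144-3p, by -1.28 ± 0.208, and in miR-144-5p, by -1.19 ± 0.184 (n = 3 against 4). For miR-486a-5p the value was -0.67 ± 0.244. In FVB/N mice the same differences were -0.33 ± 0.236, -0.36 ± 0.215, -0.18 ± 0.190 and -0.033 ± 0.256 (n = 3 against 3). Without 1 library they ran from -0.50 (without replicate 3 of FVB/N PFC) to -0.22 (without replicate 1 of FVB/N hippocampus) for miR-451a and from -0.53 to -0.27, without the same libraries, for miR-144-3p. The range was -0.385 to -0.057 for miR-144-5p, without replicates 2 and 3 of FVB/N hippocampus in turn, and -0.17 to 0.13 for miR-486a-5p, without replicates 1 and 2 of FVB/N PFC in turn.

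In TgR mice 3 of 7 member pairs had an edgeR adjusted p under 0.05, miR-451a, miR-144-3p and miR-144-5p, against 60 of 751 tested pairs, or 7.99%. The same 3 pairs were lower in every hippocampal library than in any PFC library, against 93 of 751 pairs, or 12.4%. Without replicate 3 of TgR hippocampus 5 member pairs passed, of 31 pairs in all, and the 2 added were the rows of miR-486-5p (-0.98 for miR-486a-5p), which are 1 measurement. In FVB/N mice 0 of 7 member pairs passed with edgeR, against 40 of 751 pairs, or 5.33%, and 0 with DESeq2, against 84 of all pairs. At an unadjusted p under 0.05 there were 0 of 7 and 152 of 751 pairs, or 20.2%. The hippocampal libraries of both genotypes took part in the contrast on which the members were selected, so that the counts of either genotype are a description and no test.

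Within a library the ratio of counts does not depend on scaling. The ratio of miR-451a to miR-144-3p, which come from 1 precursor, was 8.02 ± 0.978 in FVB/N hippocampus (SD, n = 3), 7.01 ± 1.07 in TgR hippocampus (SD, n = 3), 7.78 ± 0.103 in FVB/N PFC (SD, n = 3) and 8.54 ± 0.538 in TgR PFC (SD, n = 4). It ran from 5.83 to 9.30 over the 13 libraries, while miR-451a itself ran from 312 to 1768 CPM. The ratio of miR-144-3p to miR-144-5p, the strands of 1 hairpin, ran from 2.61 to 4.87.

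The ratio of miR-451a to miR-486a-5p was 2.42, 3.69 and 2.59 in FVB/N hippocampus and 3.10, 5.11 and 2.48 in TgR hippocampus. In FVB/N PFC it was 4.70, 2.88 and 3.10, and in TgR PFC 5.99, 9.09, 6.79 and 3.94. It was thus more variable than the ratio to miR-144-3p, and 3 of the 4 TgR PFC libraries were above every other library. The ratio was 6.45 ± 2.13 in TgR PFC (SD, n = 4) and 3.56 ± 0.995 in FVB/N PFC (SD, n = 3), and replicate 4 of TgR PFC lay within the FVB/N range.

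The ratio of miR-451a to miR-23a-3p, a measure of red cell lysis in serum, was 2.76, 2.58 and 2.91 in FVB/N hippocampus and 0.820, 1.09 and 1.23 in TgR hippocampus. The PFC ratios were 2.20, 2.82 and 1.62 in FVB/N mice and, in TgR mice, 2.06, 3.16, 2.38 and 2.66. The TgR hippocampal libraries were again the lowest of the 13. In that group miR-23a-3p itself was at a log2 fold change of 0.54 ± 0.150 (SE) against FVB/N, with an edgeR adjusted p of 0.0927 that did not pass the threshold, while it passed with DESeq2. Its level in 3 of 3 TgR libraries was above that of every FVB/N library, as in 83 of 726 pairs, or 11.4%. Between regions in FVB/N mice miR-23a-3p was lower in hippocampus (-0.67 ± 0.178, SE) and passed with both tools.

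**Figure D3:**
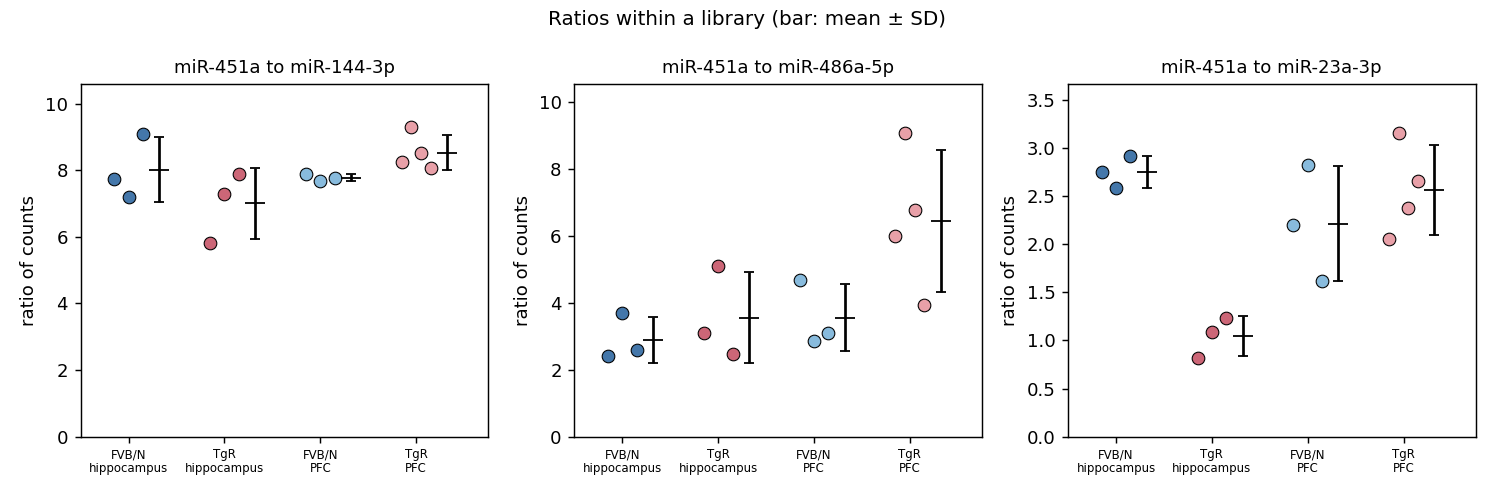
Ratios of counts within a library (vertical axes) of miR-451a to miR-144-3p, to miR-486a-5p and to miR-23a-3p, by group (horizontal axes), with bars for the mean ± SD. The ratio to miR-144-3p stays between 5.83 and 9.30, and the ratio to miR-486a-5p reaches 9.09 in TgR PFC.

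Over the 13 libraries the log2 CPM of miR-451a and miR-144-3p had a Pearson r of 0.98, and 0.90 once each group mean was taken away. For miR-451a and miR-144-5p these values were 0.85 and 0.25, and for miR-451a and miR-486a-5p 0.52 and 0.11. The points share the scaling of their library and the group differences on which the members were selected, and they are given as a description. Pooled over the 4 groups, deviations of miR-451a from its group means thus followed those of miR-144-3p, and much less those of miR-144-5p and miR-486a-5p. Replicate 2 of TgR PFC was the highest library in both miR-451a (1768 CPM) and miR-144-3p (190 CPM). The value of r within each single group was not computed.

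**Figure D4:**
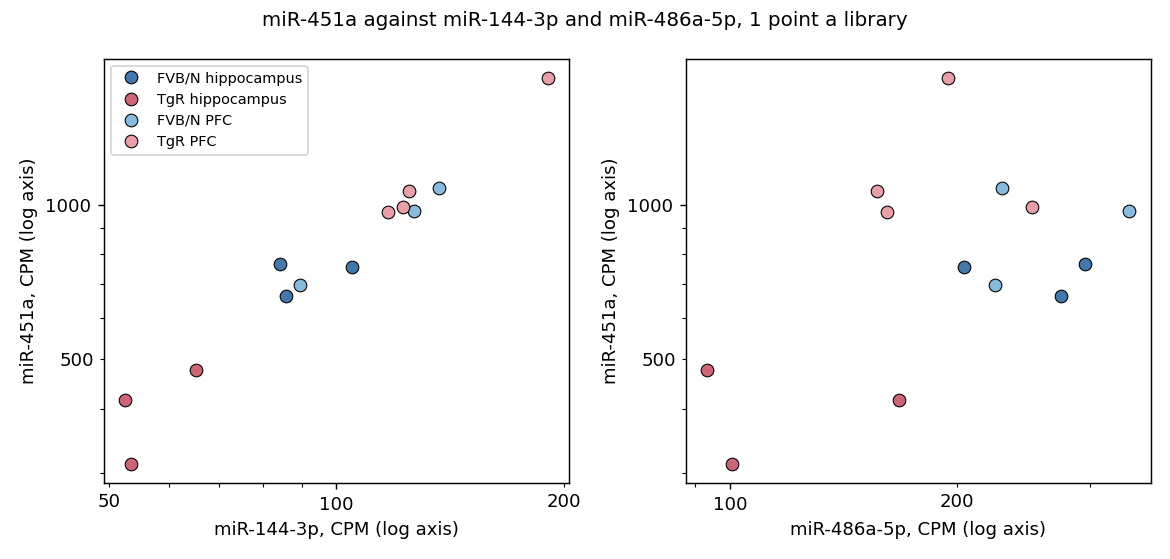
Level of miR-451a (vertical axes, CPM on a log scale) against miR-144-3p (left) and miR-486a-5p (right, both in CPM on a log scale), 1 point a library, coloured by group. The points lie near a line on the left, with r = 0.98, and scatter on the right, with r = 0.52.

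The 5 miRNAs outside the members whose log2 CPM was most like the mean of miR-144-3p, miR-144-5p, miR-451a and miR-486a-5p, of 639 tested, were miR-667-5p (r = 0.80), miR-149-5p (r = 0.77), miR-501-5p and miR-708-3p (both r = 0.75) and miR-1843a-5p (r = 0.73), over 13 libraries. Once group means were taken away they were miR-15b-5p (r = 0.93), miR-669a-3p and miR-669o-3p (both r = 0.83), miR-670-3p (r = 0.81) and miR-338-3p (r = 0.80). Since miR-669a-3p and miR-669o-3p had equal counts in each of the 13 libraries, they are 1 measurement. The 2 lists had no miRNA in common. All points share their libraries.

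Other miRNAs that are abundant in red cells but are also made by many other cells were miR-16-5p, miR-92a-3p, miR-25-3p, miR-363-3p, miR-185-5p and miR-425-5p. Their summed level was 1793, 2159 and 1955 CPM in FVB/N hippocampus and 1920, 1966 and 2031 CPM in TgR hippocampus. The PFC sums were 1793, 1848 and 2289 CPM in FVB/N mice and, in TgR mice, 1886, 1929, 1743 and 1963 CPM, with miR-185-5p the most abundant and 0 of 6 at 0. The groups overlapped throughout. With edgeR 0 of 6 had an adjusted p under 0.05 in any comparison, and DESeq2 also gave 0. At an unadjusted p under 0.05 there was 1 of 6 in the hippocampal genotype comparison, against 127 of 726 pairs, or 17.5%. It was miR-16-5p (0.36 ± 0.154, SE), and the 6 values ran from -0.33 ± 0.152 in miR-25-3p to 0.88 ± 0.671 in miR-363-3p. There were 0 of 6 in the other comparisons. The share over all pairs was 2.60% in the PFC genotype comparison, 20.2% between regions in FVB/N mice and 20.1% between regions in TgR mice. In the hippocampal genotype comparison their median log2 fold change was -0.080, beside -0.0031 over all 726 pairs.

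White blood cell miRNAs (miR-142a-5p, miR-142a-3p, miR-150-5p and miR-223-3p) summed to 397, 399 and 393 CPM in FVB/N hippocampus and 421, 449.6 and 415 CPM in TgR hippocampus. They were at 584, 468 and 499 CPM in FVB/N PFC and at 549.5, 621, 527 and 520.3 CPM in TgR PFC, with miR-150-5p the most abundant and 0 of 4 at 0. In the hippocampus the sums of TgR mice lay above those of FVB/N mice without overlap, whereas with library size alone as the scale, an alternative chosen after seeing the data, they overlapped (lowest TgR library 428 CPM, highest FVB/N library 429.5 CPM). With edgeR 0 of 4 passed in either genotype comparison, 0 also with DESeq2 and 0 at an unadjusted p under 0.05. Between regions, 2 of 4 passed in TgR mice, against 7.99% of all pairs, both lower in hippocampus, namely miR-142a-5p (-0.61 ± 0.132, SE) and miR-142a-3p (-0.62 ± 0.173). At an unadjusted p under 0.05 there were 3 of 4 in TgR mice, against 20.1% of all pairs. In FVB/N mice 0 of 4 passed with edgeR and with DESeq2, and 3 of 4 had an unadjusted p under 0.05, against 20.2% of all pairs.

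Vessel wall miRNAs (miR-126a-3p and miR-126a-5p of endothelium, miR-143-3p and miR-145a-5p of smooth muscle) summed to 12529.7, 11616 and 18277 CPM in FVB/N hippocampus and 12132, 10620.3 and 11937 CPM in TgR hippocampus. They were at 18839, 13461 and 16358 CPM in FVB/N PFC and at 17398, 13862, 16309.7 and 15777 CPM in TgR PFC, with miR-126a-3p the most abundant and 0 of 4 at 0. With edgeR and with DESeq2 0 of 4 passed in any comparison. At an unadjusted p under 0.05 there was 1 of 4 in the hippocampal genotype comparison, 0 in the PFC, 1 between regions in FVB/N mice and 2 in TgR mice, against 17.5%, 2.60%, 20.2% and 20.1% of all pairs. The hippocampal 1 was miR-126a-5p, higher in TgR (0.50 ± 0.170, SE), while miR-126a-3p, which dominates the sum, was at -0.33 ± 0.176.

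Muscle miRNAs (miR-1a-3p, miR-133a-3p and miR-206-3p) were followed because miR-486 is also made in muscle. They summed to 236, 272 and 191 CPM in FVB/N hippocampus and 367, 415 and 439 CPM in TgR hippocampus, the opposite direction to miR-486a-5p. In FVB/N PFC they were at 309, 207 and 412 CPM and in TgR PFC at 335, 248, 245 and 1307 CPM, with miR-1a-3p the most abundant and 0 of 3 at 0. In the hippocampal genotype comparison 2 of 3 passed with edgeR, against 3.44% of all pairs, both higher in TgR. They were miR-1a-3p (0.80 ± 0.172, SE, edgeR adjusted p 0.0449) and miR-133a-3p (0.98 ± 0.192, edgeR adjusted p 0.0427). Without replicate 3 of FVB/N hippocampus only 1 of all pairs passed, so these 2 could not both have passed there. The list was chosen with earlier results of these data known. In the PFC 0 of 3 passed with edgeR and with DESeq2, and 0 had an unadjusted p under 0.05. Between regions the counts were likewise 0 of 3 in either genotype, with edgeR, with DESeq2 and at an unadjusted p under 0.05.

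Neuronal miRNAs (miR-124-3p, miR-9-5p, miR-128-3p and miR-138-5p) made up the most abundant of these lists. They summed to 185860.4, 156933 and 190120.2 CPM in FVB/N hippocampus and 171265, 177675 and 154049 CPM in TgR hippocampus. The sums were 190303, 245120.2 and 258263 CPM in FVB/N PFC and 254455, 191583, 232297 and 260684 CPM in TgR PFC. The most abundant was miR-128-3p, and 0 of 4 were at 0. With edgeR 0 of 4 passed in either genotype comparison, 0 also with DESeq2, and 1 of 4 in the hippocampus and 0 in the PFC had an unadjusted p under 0.05, against 17.5% and 2.60% of all pairs. The hippocampal 1 was miR-124-3p, higher in TgR (0.37 ± 0.138, SE). Between regions in TgR mice 1 of 4 passed with edgeR, against 7.99% of all pairs, and 1 with DESeq2, and 2 had an unadjusted p under 0.05, against 20.1%. The edgeR call was miR-128-3p, lower in hippocampus (-0.72 ± 0.174, SE). In FVB/N mice 0 of 4 passed with edgeR and 1 with DESeq2, and 1 had an unadjusted p under 0.05, against 20.2%. The lists were measured in the same libraries as the members, and the part of any cell type in the members' values was not tested.

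**Figure D5:**
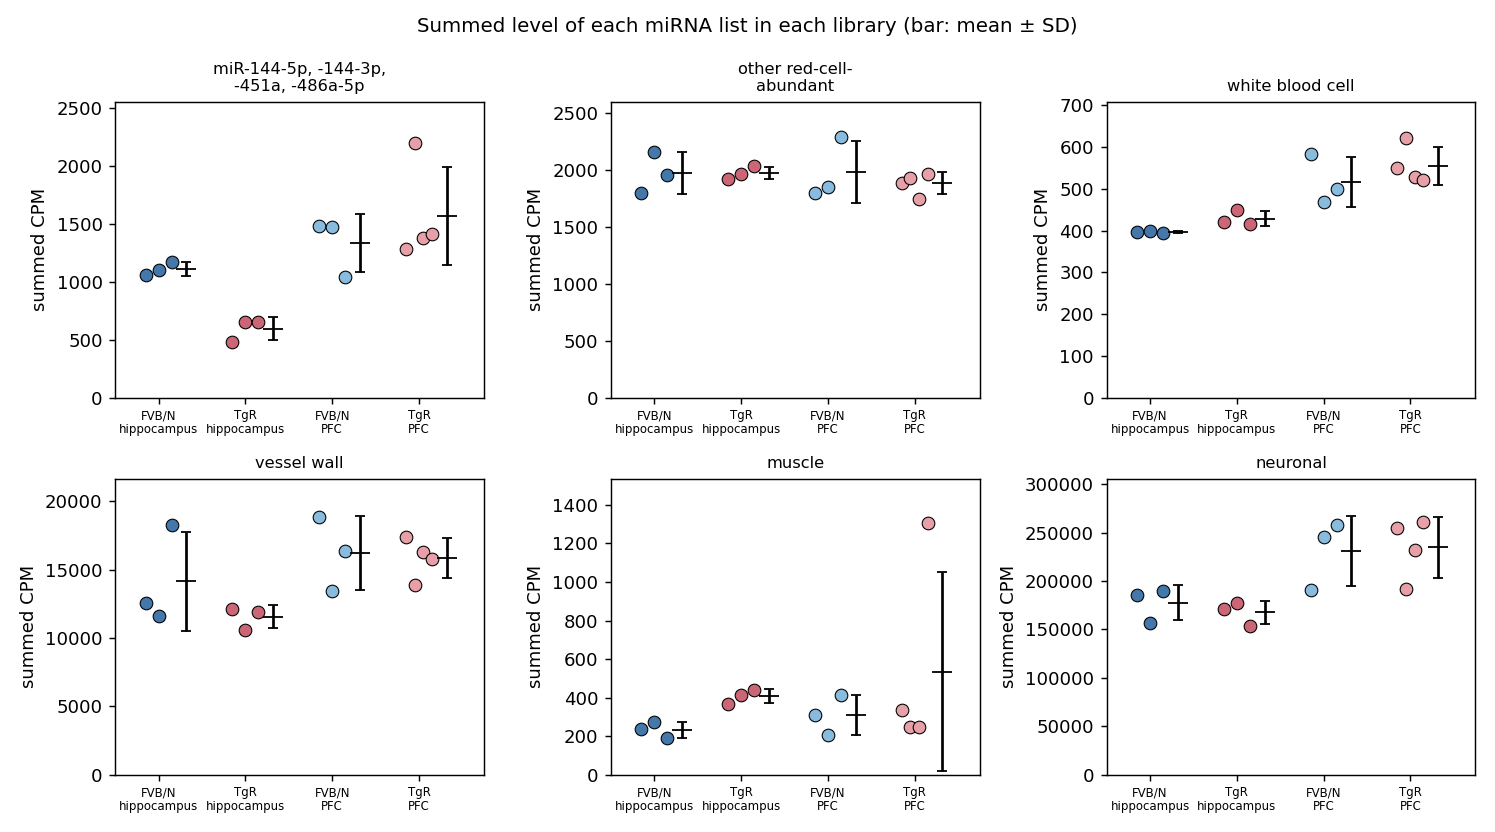
Summed level (vertical axes, CPM) of each list of miRNAs in each library by group (horizontal axes), with bars for the mean ± SD. The members are lowest in TgR hippocampus (481 to 653 CPM), where the other red-cell-abundant list is at 1920 to 2031 CPM and the muscle list at 367 to 439 CPM.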

How the data were processed

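Mouse hippocampal and PFC RNA was sequenced as small RNA, from 300 ng of RNA with RNA integrity numbers of 8.6 to 9.3. The authors aligned reads to miRBase hairpins with miRExpress and deposited raw counts per pair of hairpin and mature miRNA; the submitters' processing notes also name FastQC and DESeq2. A pair absent from a library was taken as 0. Libraries were grouped by genotype and region. The counts were tested with edgeR 4.0.16 in R 4.3.3 (TMM, filterByExpr with a minimum count of 10, quasi-likelihood test, Benjamini-Hochberg adjustment over all tested pairs, threshold 0.05). Genotypes were compared within a region, and regions in a fit of all 13 libraries. DESeq2 1.42.0, its size factors, library size alone, no filter, 1 pair per mature miRNA, other sets of libraries, a replicate block and leaving out each library were alternatives. The scripts were tested on simulated data. Total counts ran from 8769851 to 18385985 a library. The miRNAs named were all pairs of the members, mmu-mir-451b, miR-23a-3p, miR-383-5p and lists of miRNAs for blood cells, vessel wall, muscle and neurons. Also named were the 5 most like the members by Pearson r of log2 CPM (prior count 2), before and after group means were taken away. Members and lists were chosen with earlier results of these data known. Replicate numbers of FVB/N PFC libraries come from the titles. Sequences are from RefSeq (GRCm38.p6) and positions from GENCODE (GRCm38).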

Additional observations from a re-analysis of the deposited data

Results flagged for a closer look

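Replicate 2 of TgR PFC stood far from the other 3 libraries of its group in miR-144-3p (190.2 CPM), in miR-451a (1768 CPM) and in the summed level of miR-144-5p, miR-144-3p, miR-451a and miR-486a-5p (2192 CPM). Replicate 4 of TgR PFC stood apart in the summed level of the muscle miRNAs (1307 CPM). In all, 20 values were checked in this group of 4 libraries, and chance alone marks about 1 in 20. The checked values are not independent, and the flagged sum of replicate 2 contains its flagged levels of miR-451a and miR-144-3p. The number of flags is therefore not read against chance. The level of miR-451a lay below the FVB/N mean in every TgR hippocampal library, which is the contrast on which the members were selected. In the PFC miR-451a lay above the FVB/N mean in every TgR library, and the ratio of means was 0.39 on the log2 scale. The PFC groups overlapped, and without replicate 2 of TgR PFC the log2 fold change was 0.082. For the ratio of miR-451a to miR-144-3p the TgR mean was 0.874 times the FVB/N mean in the hippocampus and 1.10 times in the PFC. The hippocampal groups overlapped in this ratio (5.83 to 7.91 in TgR, 7.21 to 9.11 in FVB/N). Those of the PFC did not (8.07 to 9.30 in TgR, 7.68 to 7.89 in FVB/N). These differences between regions were not tested.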

How the results depend on the processing

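In the hippocampal genotype comparison pairs past the threshold rose from 25 to 56 with DESeq2 and 63 with no filter, and ranged from 1 to 28 without 1 library. Member pairs numbered 5 with DESeq2, 5 with no filter, 4 with 1 pair per mature miRNA (30 of all pairs), 0 with library size alone (18 of all pairs) and 0 to 3 without 1 library. The libraries were taken as unpaired, since not every correlation of same-numbered deviations exceeded 0.1; r ran from -0.30 to 0.41 between genotypes and 0.05 to 0.35 between regions. Numbers of FVB/N PFC libraries differ between sources, so whether equal numbers mark 1 mouse is not known. With a replicate block 4 member pairs and 23 of all pairs passed in the hippocampal genotype comparison. Between regions in TgR mice 109 pairs instead of 60 passed with it, 3 of them member pairs. Pairs between regions in FVB/N mice moved from 40 to 84 with DESeq2, 69 with no filter and 24 with libraries of that genotype only, and ranged from 23 to 60 without 1 library. In TgR mice they ranged from 28 to 62, with 3 to 5 member pairs. Library size alone and no filter shifted the median log2 fold change of all pairs in TgR mice to 0.14 and 0.12. In the PFC genotype comparison log2 fold changes crossed 0 without 1 library in miR-144-5p (-0.11 to 0.062), miR-144-3p (-0.0083 to 0.36), miR-486a-3p (-0.24 to 0.050) and miR-486b-3p (-0.054 to 0.22), and with all 13 libraries in 1 fit in miR-144-5p (0.0046). Between regions in FVB/N mice miR-486a-5p (-0.17 to 0.13) and miR-486b-5p (-0.16 to 0.11) did. The cause was not tested. Of the values for single miRNAs, 362 kept their direction and side of the threshold or moved by less than 1 SD, 19 gained a call, 13 lost it and 28 levels moved further, all with 1 pair per mature miRNA, to 1.59 to 1.67 times their value.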
